A study of Mus musculus with 6 samples.

Results

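Cd79b, Blk and Zap70 encode a signalling chain of the B cell antigen receptor and tyrosine kinases that act next to antigen receptors. They were selected on their change with tamoxifen: the members are all rows with 1 of these 3 symbols in the authors' deposited table of changed transcripts. This gave 3 probe sets, 1 for each gene, among the 251 rows and 225 named genes of the table and the 35557 probe sets on the arrays. Because the table lists probe sets by their change between the same arrays that are compared here, the direction and size of the members' changes are given as a description and support nothing further.

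The samples were RNA from a mouse pro-B line transformed by Abelson murine leukaemia virus, which carries the oncogenic kinase v-Abl. All 6 cultures expressed, from a retroviral vector, a fusion of Gfi1b with the oestrogen receptor domain that binds tamoxifen, so the untreated cells held the fusion too. Gfi1b is a zinc finger protein that represses transcription in haematopoietic cells, and adding tamoxifen turns such a fusion on. The groups were 3 cultures without tamoxifen (MINUS OHT in the titles) and 3 cultures with tamoxifen for 12 h (PLUS OHT), called biological replicates by the submitters, with 1 one-colour array each. The promoter that drives the fusion, and whether the line was 1 clone, are not given in the labels, and no tamoxifen-treated cells without the fusion were analysed here. Values are deposited log2 expression, and the medians of the arrays ran from 7.52 to 7.61. The arrays of replicate 2 stood apart from the rest of their groups: in a block of 6667 probe sets numbered below the table's lowest, the untreated medians were 7.26, 7.50 and 7.27 in replicates 1 to 3 and the tamoxifen medians 7.53, 7.31 and 7.48. The members are also given without those arrays. The block's medians in that fit are 7.26 and 7.27 for the untreated and 7.53 and 7.48 for the tamoxifen arrays. This difference between arrays then runs along with treatment, and its part in that fit cannot be told apart from that of tamoxifen. With all 6 arrays it runs along with treatment in part. Untreated replicates 1 and 3 and tamoxifen replicate 2 have the lower block medians, and untreated replicate 2 and tamoxifen replicates 1 and 3 the higher. Its part in the changes given below from all arrays was not tested. Precision is limited by having 3 arrays a group, and a mixed culture with fewer cells of a type cannot be told apart from less RNA per cell.

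The antigen receptor of B cells is an immunoglobulin held in the membrane together with the chains Cd79a and Cd79b. Their tails hold paired tyrosines that kinases of the Src family, such as Blk and Lyn, phosphorylate, and kinases of the Syk family then dock there and pass the signal to adaptors, lipases and further kinases. Zap70 is the Syk family kinase best known from T cells and NK cells, while B cells mainly use Syk. In pro-B cells, before a heavy chain is made, Cd79b can already reach the cell surface, and the complete pre-B receptor forms at the next stage.

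Cd79b, the receptor's signalling chain, stood at 11.74, 11.71 and 11.64 in untreated replicates 1, 2 and 3 and at 12.34, 12.25 and 12.46 in tamoxifen replicates 1, 2 and 3 (log2). Every tamoxifen array lay above every untreated array, with a gap of 0.51 between the groups, while the untreated arrays spanned 0.10 and the tamoxifen arrays 0.21. The group means were 11.70 ± 0.054 and 12.35 ± 0.11 (SD, n = 3 each), a log2 change of 0.65 ± 0.073 (SE) or 1.57-fold (limma adjusted p = 0.021, over all probe sets). The gene lies on chromosome 11 in band E1, per the annotation of its probe set 10392142.

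Blk, the Src family kinase that is largely restricted to the B lineage, went the other way. Its values were 11.93, 11.99 and 11.91 in untreated replicates 1 to 3 and 11.24, 11.08 and 11.09 in tamoxifen replicates 1 to 3 (log2, probe set 10420758, chromosome 14 in band D1). The lowest untreated array was 0.67 above the highest tamoxifen array, and the untreated arrays spanned 0.075. From 11.94 ± 0.040 to 11.14 ± 0.090 (SD, n = 3 each), the log2 change was -0.81 ± 0.067 (SE), a 1.75-fold lower level (limma adjusted p = 0.0096).

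Zap70 was measured much closer to the middle of the arrays. It read 7.09, 6.82 and 7.07 in untreated replicates 1 to 3 and 7.50, 7.82 and 7.55 in tamoxifen replicates 1 to 3 (log2, probe set 10345509, chromosome 1). Again no untreated array reached a tamoxifen array, but the gap of 0.42 was narrower and the spans of 0.27 and 0.31 within the groups were wider than those of Cd79b or Blk. The means of 6.99 ± 0.15 and 7.62 ± 0.17 (SD, n = 3 each) differed by 0.63 ± 0.11 on the log2 scale (SE), 1.55-fold, short of the threshold of 0.05 (limma adjusted p = 0.078). In size this change was close to that of Cd79b, with a standard error of 0.11 against 0.073.

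**Figure D1:**
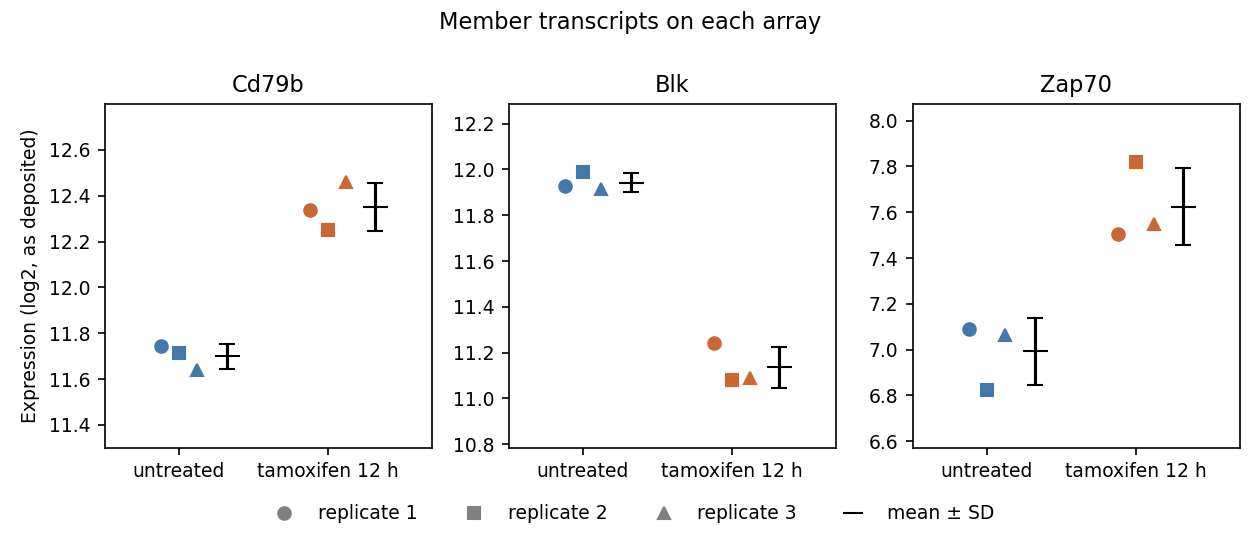
Deposited expression (vertical axis, log2) of Cd79b, Blk and Zap70 on the 3 untreated and 3 tamoxifen arrays; symbols mark the replicate number, and the bar beside each group is its mean ± SD (n = 3). Each panel spans the same height, and the groups do not overlap in any panel: Cd79b and Zap70 are higher and Blk is lower with tamoxifen.

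Thus 2 of the 3 members passed an adjusted p of 0.05, against 0.889% of all probe sets, and all 3 had groups that did not overlap, against 18.3% of all probe sets. Nothing is read from these counts, because the members came from a table made on the same contrast. In the authors' deposited table the signed folds were 1.57 for Cd79b, -1.75 for Blk and 1.56 for Zap70, with p-values of 0.000639, 0.000119 and 0.00766. Ranked there by size within their direction, Blk was number 71 of 149 falls, near their median size of 1.74, and Cd79b and Zap70 were numbers 79 and 81 of 102 rises, whose median was 1.66. In the authors' deposited table Blk stood between a row of an immunoglobulin heavy chain variable segment at -1.76 and Gpam, an enzyme of triglyceride synthesis, at -1.75. Lyz1, a lysozyme, at 1.56 was the row between Cd79b and Zap70 in the authors' deposited table. The smallest fold listed was 1.50, so Cd79b and Zap70 were among the smaller rises of the authors' deposited table.

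Signal on the array differed between the members, although a probe set's brightness does not measure one gene's transcript against another's. Blk lay between the 89.1 and 94.6 percentiles of an array's probe sets and Cd79b between 93.1 and 96.3. Zap70 lay between 35.2 and 54.7, with the 3 untreated arrays and tamoxifen replicate 1 below the array's median and tamoxifen replicates 2 and 3 above it. No measure of background was used here, so how much of the Zap70 signal is above background is unknown, and a fold computed near background understates the change of the transcript.

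Differences between members within an array are not moved by a constant shift of that array, although a normalization that reshapes an array's distribution, such as the quantile one, can move them. The log2 difference of Cd79b minus Blk was -0.18, -0.27 and -0.27 in untreated replicates 1 to 3 and 1.10, 1.17 and 1.37 in tamoxifen replicates 1 to 3. The balance of the receptor chain to the B lineage kinase thus moved by 1.46 ± 0.087 (log2, SE, n = 3 per group), or 2.75-fold, of which each gene contributed a part. Zap70 minus Blk moved by 1.44 ± 0.17 (log2, SE), with no overlap between the groups. Zap70 minus Cd79b averaged -4.71 ± 0.16 in untreated and -4.72 ± 0.26 in tamoxifen cells (log2, SD, n = 3 each). That is a change of -0.02 ± 0.18 (SE), and the groups overlapped. The change in the balance of the 2 kinases is therefore about as large as that of Cd79b to Blk, and less precisely measured. These differences rest on the values that chose the members and carry no test.

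**Figure D2:**
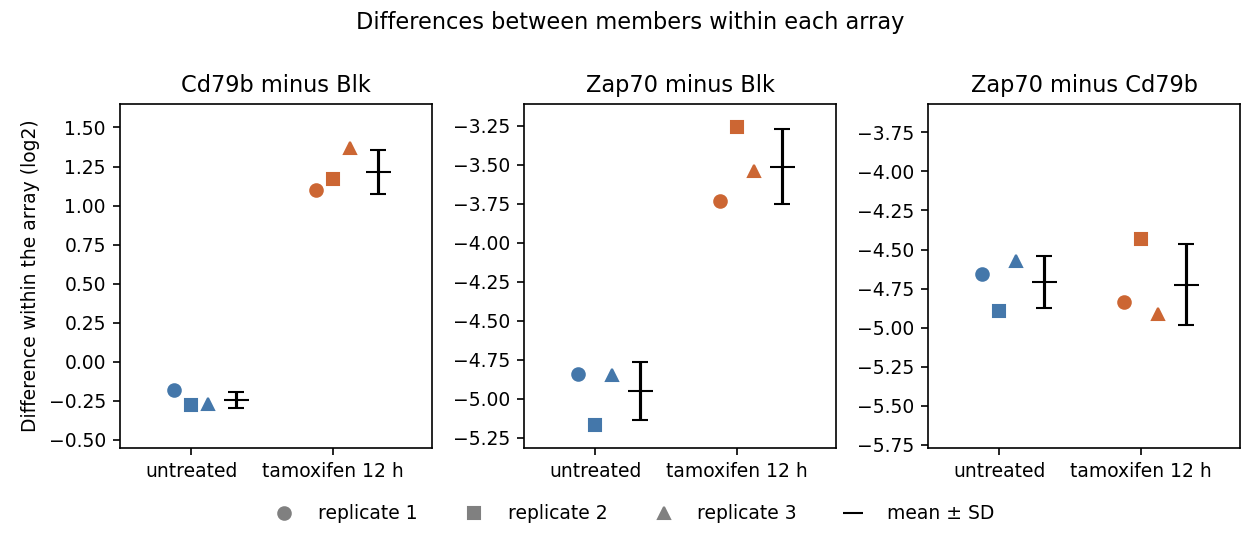
Log2 difference between pairs of members within each array (vertical axis; symbols mark the replicate number, the bar is the mean ± SD, n = 3), with panels of equal height. Cd79b minus Blk and Zap70 minus Blk are higher on every tamoxifen array, whereas Zap70 minus Cd79b averages -4.71 and -4.72.

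Within the groups the members deviated from their means in different arrays. Zap70 had its lowest untreated value in replicate 2, 0.17 below the mean of its group, and its highest tamoxifen value also in replicate 2, 0.20 above. For Blk the largest deviation was 0.10, in tamoxifen replicate 1, and for Cd79b 0.11, in tamoxifen replicate 3. The arrays of replicate 2, where Zap70 deviated most, were those that stood apart in the low-numbered block. Without both arrays of replicate 2 the change of Zap70 was 0.45 ± 0.058 (log2, SE; limma adjusted p = 0.059). In that fit Cd79b was 0.71 ± 0.078 (adjusted p = 0.053) and Blk -0.76 ± 0.076 (adjusted p = 0.048). The arrays left in it differ in the low-numbered block along with treatment.

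The calls depended on which arrays were used. When single arrays were left out in turn, Blk passed in 2 of 6, those without tamoxifen replicate 1 (limma adjusted p = 0.040) and without untreated replicate 2 (0.030), and otherwise had adjusted p between 0.052 and 0.069. Cd79b passed in 1 of 6, without untreated replicate 2 (limma adjusted p = 0.041), and Zap70 in 0 of 6, with adjusted p from 0.095 to 0.22. The sizes moved little for the first pair, from -0.86 to -0.78 for Blk and from 0.60 to 0.70 for Cd79b, while Zap70 ranged from 0.54 to 0.69 (log2). Zap70 passed in 6 of the 14 alternatives, among them quantile normalization (0.67, limma adjusted p = 0.038) and median centring (0.67, 0.045). In the fit without untreated replicate 2, the low-numbered block's medians run along with treatment. They are 7.26 and 7.27 for the untreated and 7.53, 7.31 and 7.48 for the tamoxifen arrays. The part of this difference in the calls of Blk and Cd79b there was not tested.

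**Figure D3:**
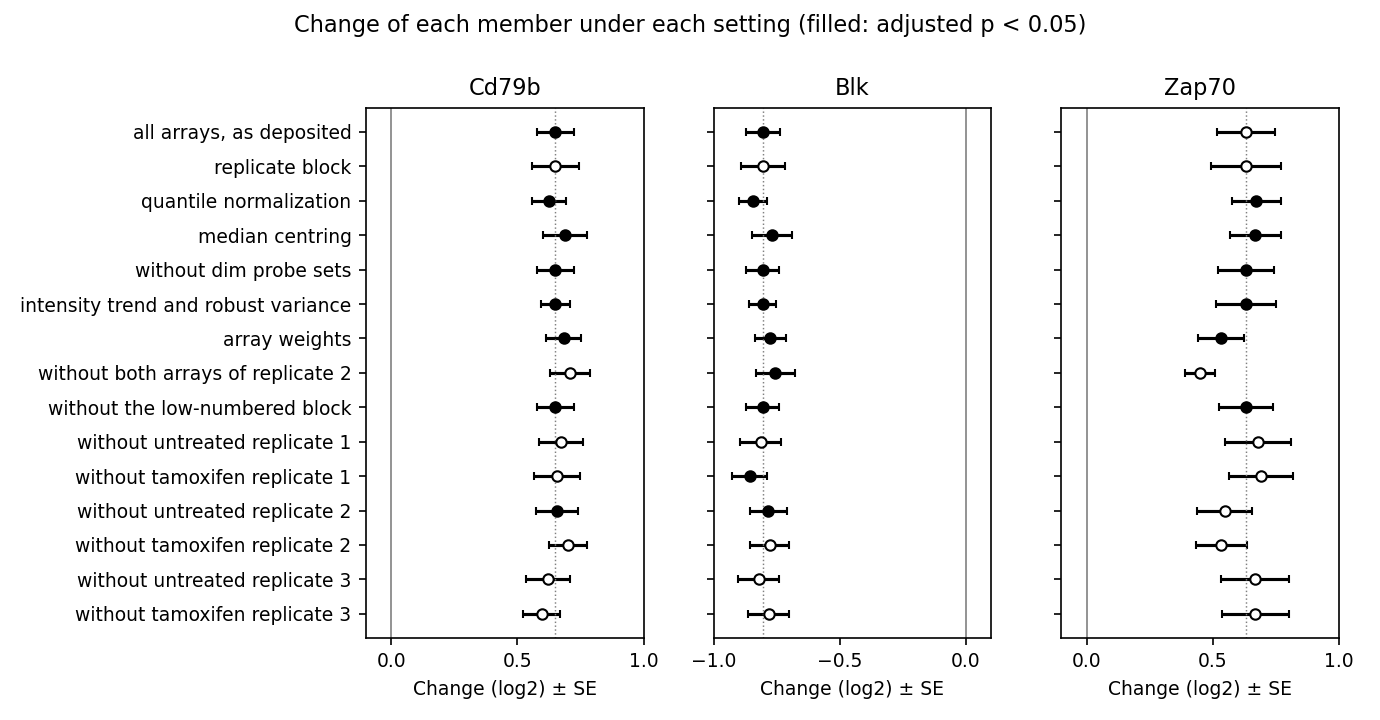
Log2 change with tamoxifen ± SE (horizontal axis) of Cd79b, Blk and Zap70 with all arrays and under 14 alternatives (rows); filled points have a limma adjusted p under 0.05 and the dotted line is the value with all arrays. No alternative crosses 0, and the smallest change of Zap70, 0.45, is the one without both arrays of replicate 2. In that fit the low-numbered block differs between arrays along with treatment.

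A list of 82 genes of antigen receptor signalling, written with earlier results of these data known, was set against the table to place the members among their partners. The table held 7 of the 82, of which 3 rose, 2 fell and 2 did not pass. Over all probe sets 0.433% were called higher and 0.456% lower, and in the table itself 68 and 114 of 251 rows. The median log2 change of the 7 was 0.63, beside -0.01 over all probe sets and -0.63 over the table's 251 rows. With members on both sides of 0, all selected by the authors for their change, this median says little about the list. The other 75 list genes were not analysed here, since names were at hand for the table's rows alone, and among them are Cd79a, Syk, Lyn, Btk and Blnk.

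Besides Cd79b, the rises were those of an inhibitory phosphatase and an adaptor. Ptpn6 encodes SHP-1, the phosphatase that inhibitory receptors such as CD22 recruit to damp receptor signals. It read 11.85, 11.77 and 11.85 in untreated replicates 1 to 3 and 12.57, 12.51 and 12.45 in tamoxifen replicates 1 to 3 (log2). These groups lay 0.60 apart, and the log2 change was 0.69 ± 0.060 (SE, n = 3 per group; limma adjusted p = 0.011). Lat2, a membrane adaptor that Src and Syk family kinases phosphorylate, went from 8.44 ± 0.091 to 9.22 ± 0.16 (SD, n = 3 each), a log2 change of 0.78 ± 0.099 (SE; limma adjusted p = 0.029). Themis2, an adaptor of B cells and macrophages, had a log2 change of 0.59 ± 0.094 (SE), above the threshold at a limma adjusted p of 0.056.

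The falls were those of Blk and of Bank1, the scaffold with ankyrin repeats that is phosphorylated after receptor engagement and, in human cells, binds BLK. Bank1 was 10.97, 11.21 and 10.97 in untreated replicates 1 to 3 and 10.22, 10.17 and 10.25 in tamoxifen replicates 1 to 3 (log2). All tamoxifen arrays were at least 0.72 below the untreated ones, and the log2 change of -0.84 ± 0.082 (SE; limma adjusted p = 0.015) was close in size to that of Blk. Of the 11 Src and Syk family kinases listed, the table held Blk and Zap70. In the receptor the Cd79 chains are partners of the immunoglobulin heavy chain. A row named Igh fell from 11.63 ± 0.047 to 10.75 ± 0.082 (log2, SD, n = 3 each) while Cd79b rose (limma adjusted p = 0.0066 for Igh). Whether this row measures the heavy chain transcript of a receptor was not tested.

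Leaving out 1 array bore on these partners as on the members. Bank1, Lat2 and Ptpn6 each passed in 1 of 6 such fits and Themis2 in 0 of 6. In the fits without tamoxifen replicate 2, without tamoxifen replicate 3, without untreated replicate 1 and without untreated replicate 3, 0 of the 7 list genes passed. Without tamoxifen replicate 1 the count was 0 higher and 1 lower. Leaving out untreated replicate 2 gave 3 higher and 2 lower, the same as with all arrays. In that fit too, the medians of the low-numbered block run along with treatment, and their part in these counts was not tested. With the replicate 2 arrays left out the log2 changes were -0.74 for Bank1, 0.66 for Ptpn6, 0.90 for Lat2 and 0.67 for Themis2, and 1 list gene passed higher and 2 lower.

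**Figure D4:**
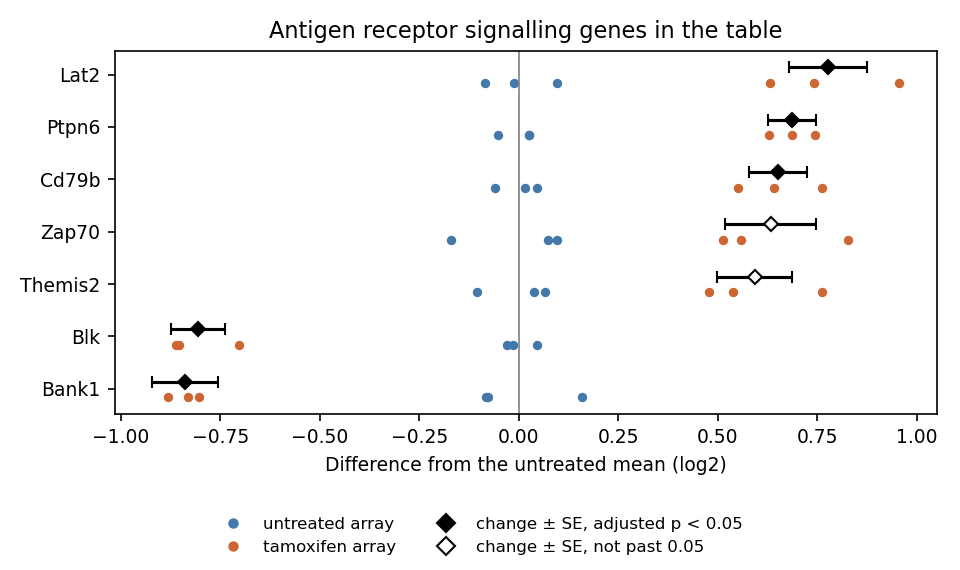
Difference from the untreated mean (horizontal axis, log2) for the 7 antigen receptor signalling genes in the authors' deposited table; small points are single arrays and diamonds the change ± SE, filled where the limma adjusted p is under 0.05. Lat2, Ptpn6, Cd79b, Zap70 and Themis2 lie to the right and Blk and Bank1 to the left, and Zap70 and Themis2 are open.

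Markers of other cells were counted because Zap70 is also a T and NK cell gene. Of 25 T and NK cell genes the table held Zap70 and Tcf7, a transcription factor of T cell precursors. Tcf7 rose from 7.43, 7.48 and 7.38 in untreated replicates 1 to 3 to 8.33, 8.23 and 8.26 in tamoxifen replicates 1 to 3 (log2), a change of 0.85 ± 0.059 (SE; limma adjusted p = 0.0060). The other 23, among them the CD3 chains and Lck, were not analysed here, so the part of T or NK cells in the Zap70 difference was not tested. Of 18 myeloid genes 2 were in the table and rose, of 7 plasma cell genes 2 were there and rose, and of 14 erythroid and megakaryocyte genes 0 were there. These counts stand beside the same 0.433% of all probe sets and 68 of 251 table rows called higher, and nothing particular to the lists is read from them. Of 15 pro-B and pre-B cell genes the table held Rag1, Rag2, Blk and Cd79b, of which Cd79b rose and the other 3 fell. The untreated means of these markers of the labelled pro-B line were 11.34 for Rag1, 8.72 for Rag2, 11.94 for Blk and 11.70 for Cd79b (log2). Rag1, Blk and Cd79b lay above the arrays' upper quartiles of 9.52 to 9.63, and Rag2 lay between the medians and the upper quartiles.

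Likeness of pattern was measured by Pearson's r across the 6 arrays, against 212 other named genes of the table. All of these genes were listed for their change with treatment, so a gene that moved the same way as a member has a positive r through the treatment difference itself, and r only describes these arrays. Blk was most like Mrc1, a mannose receptor (r = 0.9991), the lysophospholipid receptor Lpar6 (0.9987) and the kinase Sgk1 (0.9984), all of which were lower with tamoxifen. Mrc1 followed Blk also within the groups, at 10.09, 10.20 and 10.06 in untreated and 9.09, 8.87 and 8.80 in tamoxifen replicates 1 to 3 (log2), with the highest untreated value in replicate 2 and the highest tamoxifen value in replicate 1 for both genes. Such likeness is part of what picking the highest r selects. Lpar6 and Sgk1 had their highest values in the same arrays. Cd79b was most like Grn, the growth factor precursor progranulin (r = 0.9976), the lipid enzyme Agpat2 (0.9975) and the decoy receptor Il1r2 (0.9974).

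The values of Zap70 spread more within the groups (SD 0.15 and 0.17, log2) than those of Blk (0.040 and 0.090) or Cd79b (0.054 and 0.11). Such spread lowers r, so the counts that follow do not show a pattern particular to Zap70. The likeness passed 0.95 for 95 of the 212 genes with Blk, for 59 with Cd79b and for 1 with Zap70. That gene was Elovl7, an enzyme that lengthens fatty acids (r = 0.9576), followed by Ptpn6 (0.9327) and Lyz1 (0.9273). Elovl7 also had its lowest untreated and its highest tamoxifen value in replicate 2, at 6.87 and 7.86 (log2).

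Gfi1b binds DNA at sites with the core AATC, and the bases before the start of Zap70 are shown because Zap70 is the 1 member with an entry in the RefSeq promoter table used here (GRCm38.p6). The 250 bases before its most upstream of 3 listed starts, chr1:36761548-36761797 on the plus strand, are printed 5′ to 3′ with AATC, or GATT where the core is on the other strand, in capitals.
Zap70: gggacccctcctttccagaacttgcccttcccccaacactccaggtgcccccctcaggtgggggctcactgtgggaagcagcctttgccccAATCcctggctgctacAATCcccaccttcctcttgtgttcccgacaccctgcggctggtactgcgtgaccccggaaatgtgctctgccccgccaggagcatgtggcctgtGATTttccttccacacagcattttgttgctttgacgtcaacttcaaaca
The core occurs at 3 places, beginning 159, 143 and 49 bases before the start. Among the partners with an entry, the window of Bank1 held it at 0 places, that of Ptpn6 at 0 and that of Themis2 at 2. At least 1 match to AATC on either strand was present in 69.8% of 27025 such windows, 1 for each gene, and 3 or more were present in 18.1%. A longer form of the site, TAAATCAC on either strand, was not in the window, and 0.544% of all windows held it. These matches describe the sequence, and no measure of binding was among the data.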

How the data were processed

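Total RNA of 6 cultures was labelled with biotin alone, per the labels, for arrays of 1 colour; titles gave the groups and replicate numbers. The authors deposited 1 log2 value per probe set and array, and no further scaling was applied. Base 2 follows from the values: group differences were within 0.021 of the log2 of the authors' folds. The authors' deposited table holds p-values whose test it does not name. The authors also deposited there, per the file headers, a signed score for the fold, linear and negative for falls. The submitters' processing notes name Partek, with no role or version. Background correction, summarisation, normalization, array design and build: not given in the sources used here.

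Tamoxifen was compared with untreated cells by limma 3.58.1 in R 4.3.3 (lmFit and eBayes, 2 groups, no covariate); p-values were adjusted by Benjamini-Hochberg across the 35557 probe sets, with a threshold of 0.05. These p-values reflect the spread between arrays. The fit was also run on simulated data in which each value was drawn independently. Those data had no differences shared across an array, so they do not show how the fit performs on these arrays. Symbols were updated through RefSeq (GRCm38.p6): 200 of 251 rows matched by accession, 13 by symbol and 19 by synonym, 8 kept their name and 11 had none. Where a gene had several probe sets, the brightest was used. The members and gene lists were chosen with earlier results of these data known. Named besides the members were every member of the signalling list in the table, up to 3 genes of other lists, the 3 named genes most like each member, and neighbours by fold. The alternatives comprised a replicate block, other normalizations, filters and variance models, and arrays left out. Figures were drawn with matplotlib 3.10.9.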

Additional observations from a re-analysis of the deposited data

How the results depend on the processing

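In all 14 alternatives Cd79b and Zap70 kept a positive and Blk a negative log2 change, which shows little, since they came from a table made on these arrays and several alternatives leave the change as it is. Same-numbered arrays had correlations of -0.229, -0.45 and -0.096 in their deviations from group means. Same-numbered arrays lay on opposite sides of the difference in the low-numbered block, and this can lower the correlations. The correlations therefore cannot show whether same-numbered cultures were alike or paired. In the low-numbered block, untreated replicate 2 lay above and tamoxifen replicate 2 below the rest of its group. With the replicate block the changes of Blk (-0.81, limma adjusted p = 0.13) and Cd79b (0.65, 0.19) did not pass, 6 probe sets were called higher and 16 lower, and 0 and 0 list genes. Without both arrays of replicate 2, Cd79b (0.71, adjusted p = 0.053) did not pass, Blk (-0.76) did, 247 probe sets were called higher and 85 lower, and 1 list gene higher. Zap70 passed with quantile normalization (0.67), median centring (0.67), without dim probe sets, below the 25th percentile of mean signal (0.63), with an intensity trend and robust variance (0.63), with array weights (0.53) and without the low-numbered block (0.63). Against 154 probe sets called higher and 162 lower, counts were 270 higher without dim probe sets, 410 and 311 with the trend, 814 and 376 with array weights, and 332 and 308 without the block of low numbers; 309 were lower with quantile normalization and 104 with median centring. List genes called higher, 3 with all arrays, were 5 with quantile normalization, without dim probe sets, with the trend, with array weights and without that block. With 1 array left out, Blk ranged from -0.86 to -0.78, Cd79b from 0.60 to 0.70 and Zap70 from 0.54 to 0.69, probe sets from 9 to 278 higher and 28 to 136 lower, and list genes from 0 to 3 higher and 0 to 2 lower. The counts of 278 and 136 came without untreated replicate 2, where the low-numbered block's medians run along with treatment. Except where fewer arrays or probe sets show it, the cause was not tested. The files used hold no background signal, so what dimness limits for Zap70 is not known beyond the filter on dim probe sets.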
